A study of Homo sapiens with 6 samples.

Results

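Copying the genome in S phase is carried out by a set of conserved proteins, and the transcripts of 53 genes that encode them, or that feed and follow the replication fork, were followed in DCIS.COM cells with and without knockdown of BCL9. The 53 genes were listed by name for their role, by a rule that uses no measured value although earlier results of these data were known, and all 53 were found among the 58676 genes of the deposited table. RNA-Seq was performed on 3 NS control and 3 BCL9 KD samples. DCIS.COM is an established human breast cell line of the basal type that is grown as a model of ductal carcinoma in situ (DCIS), a lesion in which tumor cells have not yet left the duct. NS control cells were transduced with a lentiviral PLKO.1 vector carrying a non-silencing shRNA, and BCL9 KD cells with the same vector carrying an shRNA against BCL9, a co-activator of β-catenin in Wnt signaling. Both groups were selected with puromycin, were grown in medium with horse serum, and gave a flask of cells for each replicate. As the flasks of a group came from the same cell line and the same shRNA, p-values measure the spread between flasks and cannot separate loss of BCL9 from another effect of that shRNA.

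In each cell cycle, the origin recognition complex (ORC) together with CDC6 and CDT1 loads the ring-shaped MCM helicase on origins, a step called licensing, which geminin (GMNN) holds back once S phase has begun. The kinase CDC7 with its partner DBF4 then activates the helicase, CDC45 and the GINS complex join it, and DNA polymerases α, δ and ε copy both strands with the clamp PCNA and the single-strand binding protein RPA. Many of these genes are known targets of E2F transcription factors, which are released when the retinoblastoma protein is phosphorylated in late G1, so that their transcripts rise together in dividing cells.

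Promoters were searched for the E2F-type words TTTCCCGC, TTTCGCGC, TTTGCCGC and TTTGGCGC on both strands. The window runs from 250 bases before to 50 bases after each RefSeq gene start on GRCh38.p14. Of the 53 genes, 47 had a promoter entry and 25 of these (53.2%) held at least 1 word, against 3.99% of the 27305 genes with an entry and 3.31% of all 35116 promoters. The words were also found in 8 of 34 other replication genes with an entry (23.5%) and in 4 of 18 E2F, pocket protein and S phase cyclin genes (22.2%). Genes with BCL9 KD values on either side of the NS control values held the words (4 of 5 with an entry above, 9 of 15 below), as did 12 of 27 genes whose groups overlapped. A word in the window is a description of its letters and not a bound site. The 6 promoters below were chosen after values were seen, to show the words in genes whose BCL9 KD values all lay above (CDC7 and GINS3) or all below NS control (POLE, E2F2 and MCM6) and in PCNA, which had the highest level. Each is printed 5′ to 3′ on the strand of the gene with the matched words in capitals, and the gene start is base 251. The regions are chr1:91500862-91501161 (plus strand) for CDC7, chr16:58392221-58392520 (plus) for GINS3, chr12:132687293-132687592 (minus) for POLE, chr1:23531184-23531483 (minus) for E2F2, chr2:135876394-135876693 (minus) for MCM6 and chr20:5126573-5126872 (minus) for PCNA.
CDC7: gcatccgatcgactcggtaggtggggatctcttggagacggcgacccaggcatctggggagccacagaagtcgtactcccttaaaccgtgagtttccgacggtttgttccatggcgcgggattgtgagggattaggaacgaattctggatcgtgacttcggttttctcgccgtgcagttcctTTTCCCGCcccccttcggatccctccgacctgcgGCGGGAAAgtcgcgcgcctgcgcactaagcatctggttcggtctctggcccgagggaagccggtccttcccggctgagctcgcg
GINS3: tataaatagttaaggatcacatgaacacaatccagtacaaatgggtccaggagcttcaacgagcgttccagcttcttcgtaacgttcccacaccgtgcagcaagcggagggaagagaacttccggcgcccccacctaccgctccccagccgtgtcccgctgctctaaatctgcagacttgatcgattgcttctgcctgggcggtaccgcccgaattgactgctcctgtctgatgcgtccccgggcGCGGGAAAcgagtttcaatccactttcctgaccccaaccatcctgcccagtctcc
POLE: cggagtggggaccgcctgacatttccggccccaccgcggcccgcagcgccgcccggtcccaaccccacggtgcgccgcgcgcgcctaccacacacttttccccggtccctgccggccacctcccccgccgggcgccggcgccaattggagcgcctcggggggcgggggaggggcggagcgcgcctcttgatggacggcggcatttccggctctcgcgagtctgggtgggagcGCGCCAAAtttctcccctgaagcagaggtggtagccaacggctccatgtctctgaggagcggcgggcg
E2F2: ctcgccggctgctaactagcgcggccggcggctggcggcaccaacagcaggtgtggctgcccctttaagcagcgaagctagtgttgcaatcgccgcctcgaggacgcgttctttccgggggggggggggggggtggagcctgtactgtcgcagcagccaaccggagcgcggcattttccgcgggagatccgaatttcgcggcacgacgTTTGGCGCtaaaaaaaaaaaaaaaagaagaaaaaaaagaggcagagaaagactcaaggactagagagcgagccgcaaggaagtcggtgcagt
MCM6: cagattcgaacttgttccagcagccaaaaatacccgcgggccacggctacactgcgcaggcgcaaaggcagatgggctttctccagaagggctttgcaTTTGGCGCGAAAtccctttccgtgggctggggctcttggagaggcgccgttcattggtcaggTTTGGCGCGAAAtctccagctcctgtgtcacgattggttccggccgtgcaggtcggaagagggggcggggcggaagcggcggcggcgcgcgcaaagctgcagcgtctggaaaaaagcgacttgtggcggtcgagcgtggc
PCNA: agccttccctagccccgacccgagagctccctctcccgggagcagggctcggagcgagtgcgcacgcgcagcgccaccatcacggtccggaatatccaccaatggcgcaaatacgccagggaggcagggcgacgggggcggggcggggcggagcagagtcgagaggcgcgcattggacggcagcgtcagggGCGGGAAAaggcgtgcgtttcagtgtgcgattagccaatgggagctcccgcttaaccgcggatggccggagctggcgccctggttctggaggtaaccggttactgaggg

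CDC7 and PCNA each have a further RefSeq entry, at chr1:91500601-91500900 and chr20:5119909-5120208, that holds 0 words, and the entries with words are printed. In CDC7 a word lies on each strand, and in MCM6 words that overlap on opposite strands form a pair of separate stretches. GINS3, POLE, E2F2 and PCNA each hold 1 word. The cell cycle homology (CHR) type words TTCGAA and TTTGAA, known from genes that peak later in the cycle, were found in 5 of the 47 replication genes (10.6%), in 15 of 18 mitosis genes with an entry (83.3%) and in 19.5% of all genes.

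Expression was measured as FPKM, the reads on a gene per kilobase of its length and per library size (the reads counted on all genes). Between 15222452 and 26949026 reads were counted on genes per sample, and a replication gene received between 128 and 10574 reads in any sample. Differences are log2 fold changes of FPKM + 0.5, BCL9 KD minus NS control, from limma over the 13745 genes whose FPKM averaged at least 0.5, and a gene was called at a Benjamini-Hochberg adjusted p under 0.05 over all of them. For weakly expressed genes, the added 0.5 FPKM draws this difference toward 0. Values are given in the order of replicates 1, 2 and 3. BCL9 itself had 6.25, 6.24 and 5.34 FPKM in NS control and 2.86, 2.78 and 2.59 FPKM in BCL9 KD samples (log2 fold change −0.99, limma adjusted p = 0.00773). BCL9 was not called without NS control replicate 2, BCL9 KD replicate 2 or BCL9 KD replicate 3 (limma adjusted p = 0.0636, 0.0600 and 0.0700), with log2 fold changes from −1.06 to −0.95 whichever replicate was left out. Of 7 basal epithelial markers, all were expressed, with KRT5 at a mean of 398 FPKM in NS control and 413 FPKM in BCL9 KD samples, and none was called by limma. The 8 markers of other cell types summed to between 2.41 and 2.93 FPKM in NS control and between 3.97 and 4.62 FPKM in BCL9 KD samples. PECAM1, an adhesion molecule of endothelium, was called higher (2.10 to 3.45 FPKM, limma adjusted p = 0.0477, and 0.0480 to 0.186 with single replicates left out), while CDH5, which defines endothelium, had 0.0196 and 0.0303 FPKM and COL3A1 and PGR were listed at 0 in all 6 samples. The part of PECAM1 in the replication results was not tested. NS control replicate 1 stood apart from the other libraries in how its values followed the GC content of transcripts, as described with the GC results.

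The transcripts of the replication genes differed between the groups by log2 fold changes from −0.48 (E2F2) to 0.65 (RPA3). All 53 genes passed the filter on low values, with mean levels from 1.42 FPKM for POLA2 to 119 FPKM for PCNA, and their FPKM summed to 1386, 1330 and 1286 in NS control and to 1223, 1309 and 1302 in BCL9 KD samples. In bulk samples, fewer cells in S phase and less RNA per cell cannot be told apart. RPA3 was called higher and POLE and E2F2 were called lower, which is 1 and 2 of 53 genes, where 2.96% of all genes tested were called higher and 2.91% lower. Log2 fold changes were above 0 for 21 and below 0 for 32 genes, with a median of −0.04 against 0.04 over all genes tested. None of the 53 reached an absolute log2 fold change of 1, which 208 of the 13745 genes did. All 3 BCL9 KD values lay above all 3 NS control values for 6 genes (17.8% of all genes tested) and below them for 17 genes (16.4% of all genes tested), and the groups overlapped for 30. An unadjusted p under 0.05 was reached by 22 genes, 6 higher and 16 lower, against 3775 of the 13745 genes tested, 1990 higher and 1785 lower.

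**Figure D1:**
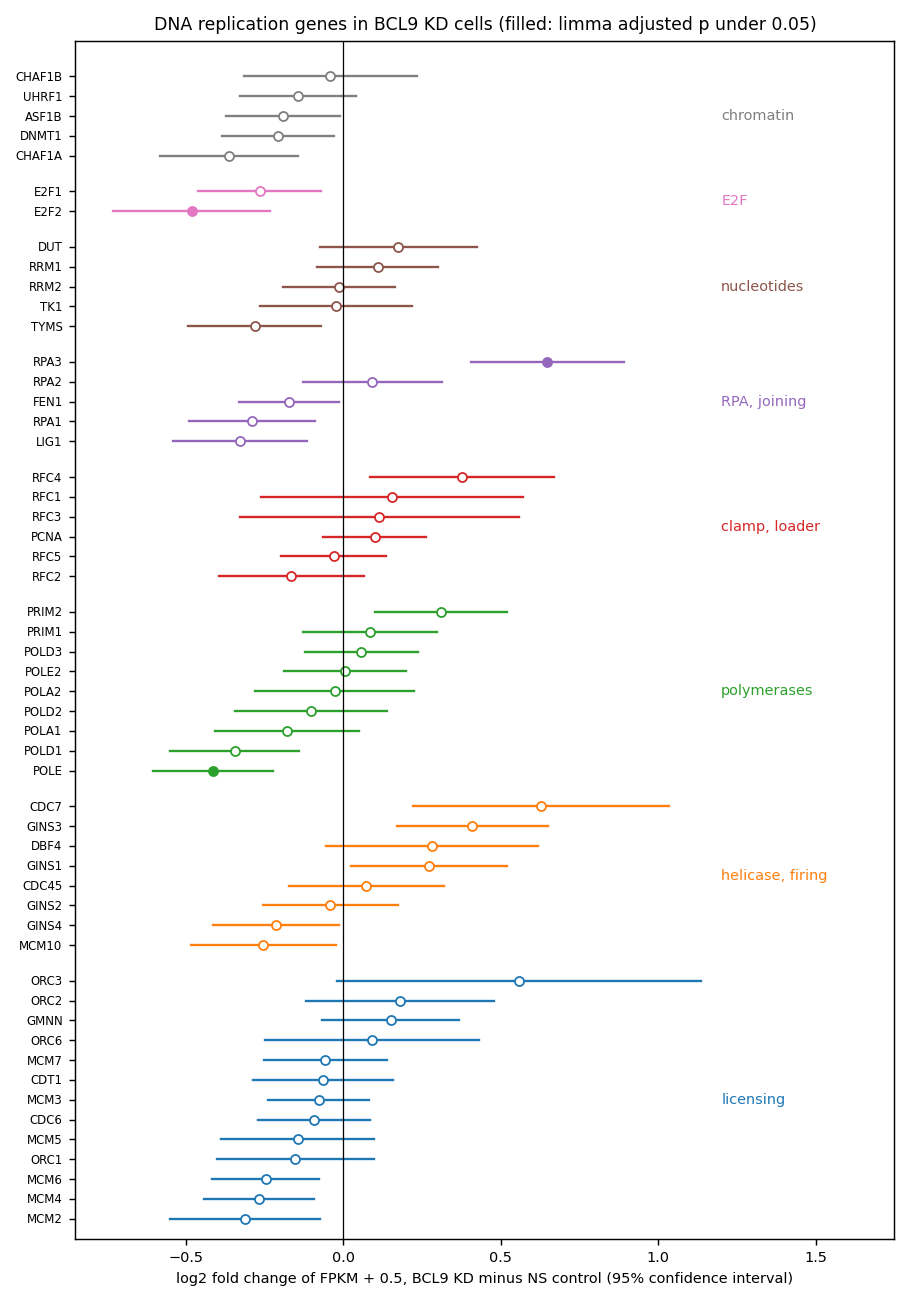
The log2 fold change of FPKM + 0.5, BCL9 KD minus NS control, is plotted for the 53 genes by role, with its 95% confidence interval from limma (n = 3 per group). The filled points are RPA3 above 0 and POLE and E2F2 below it, and all 5 chromatin genes lie below 0.

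Licensing was represented by 13 genes, and none of them was called by limma on the deposited values. The log2 fold change was above 0 for 4 and below 0 for 9 of them, and 3 had an unadjusted p under 0.05, all lower. MCM7, a subunit of the helicase ring and the most abundant transcript of the group, had 99.3, 89.7 and 85.3 FPKM in NS control and 82.6, 89.5 and 91.5 FPKM in BCL9 KD samples, so that the groups overlapped (log2 fold change −0.06, 95% confidence interval −0.25 to 0.14). The other ring subunits had log2 fold changes of −0.31 (MCM2), −0.27 (MCM4), −0.25 (MCM6), −0.14 (MCM5) and −0.08 (MCM3). With single replicates left out, that of MCM5 ran from −0.23 to −0.04. MCM2, MCM4 and MCM6 were lower in each BCL9 KD sample than in any NS control sample, and their limma adjusted p ran from 0.0772 to 0.105. MCM4 was called lower with the GC correction (−0.25, limma adjusted p = 0.0466). ORC3, a subunit of the origin recognition complex, had 3.51, 6.02 and 7.80 FPKM in NS control and 8.21, 8.27 and 8.57 FPKM in BCL9 KD samples. The groups did not overlap, and most of the spread was among NS control samples, from the lowest value in replicate 1 to one close to BCL9 KD in replicate 3. Its log2 fold change of 0.56 (95% confidence interval −0.02 to 1.13, limma adjusted p = 0.193) was 0.30 with the GC correction and 0.27 without NS control replicate 1. ORC1, ORC2 and ORC6 of the same complex, the loaders CDC6 and CDT1 and the inhibitor GMNN had overlapping groups and log2 fold changes from −0.15 to 0.18.

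The genes of helicase activation and origin firing lay on both sides of 0, also within a complex. Of 8 genes, 5 were above 0 and 3 below, none was called by limma, and 5 had an unadjusted p under 0.05 (3 higher and 2 lower). CDC7, the kinase that triggers origin firing, had 2.75, 4.0 and 4.65 FPKM in NS control and 5.79, 5.76 and 6.57 FPKM in BCL9 KD samples. All BCL9 KD values were above all NS control values, with NS control replicate 1 the lowest. The log2 fold change was 0.63 (95% confidence interval 0.22 to 1.03) and the limma adjusted p = 0.0737, which was between 0.0231 with the GC correction and 0.248 over the 16 alternatives. DBF4, the activating partner of CDC7, had overlapping groups and a log2 fold change of 0.28 with limma adjusted p = 0.245. It was 0.04 with the GC correction, 0.15 without NS control replicate 1 and 0.43 without NS control replicate 3, where it was called (limma adjusted p = 0.0440, and up to 0.776 over the 16 alternatives).

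GINS is a ring of 4 different subunits that stays with the helicase. GINS3 had 1.97, 1.92 and 1.98 FPKM in NS control and 2.45, 2.90 and 2.96 FPKM in BCL9 KD samples. The NS control values were nearly the same and lay below every BCL9 KD value, with a log2 fold change of 0.41 (95% confidence interval 0.17 to 0.65, limma adjusted p = 0.0603). GINS2, the most abundant transcript of this role, had 22.4, 20.4 and 19.2 FPKM in NS control and 18.5, 21.8 and 20.0 FPKM in BCL9 KD samples, with a log2 fold change of −0.04 (95% confidence interval −0.25 to 0.17). GINS1 and GINS4 lay apart without overlap of the groups in opposite directions, at 0.27 (limma adjusted p = 0.150) and −0.21 (limma adjusted p = 0.158). MCM10, which helps to start the active helicase, was below NS control in every BCL9 KD sample (log2 fold change −0.25, limma adjusted p = 0.151), and CDC45 had overlapping groups (0.07).

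Among 9 polymerase and primase genes, POLE was called lower by limma on the deposited values, and the other 8 were not called there. POLE (ENSG00000177084, chromosome 12 of GRCh38, 132623753 to 132687365) encodes the catalytic subunit of DNA polymerase ε, which copies the leading strand. Its level was 12.0, 12.0 and 10.8 FPKM in NS control and 9.11, 8.21 and 8.46 FPKM in BCL9 KD samples. The means were 11.6 ± 0.737 and 8.59 ± 0.466 FPKM (SD, n = 3), and every BCL9 KD value was below every NS control value (two-sided exact permutation p = 0.1, the smallest that 3 against 3 allows). The log2 fold change was −0.41 (limma adjusted p = 0.0387, standard error 0.0804). It was between −0.46 and −0.36 over the 16 alternatives and was called in 9 of them, with adjusted p from 0.0205 to 0.185. Outside the fits with a replicate block, the call was lost with no filter on low values (0.0843) and without NS control replicate 1 (0.0512), NS control replicate 2 (0.155), BCL9 KD replicate 2 (0.185) or BCL9 KD replicate 3 (0.185), the values being limma adjusted p. Its accessory subunit POLE2 had a log2 fold change of 0.01 (95% confidence interval −0.19 to 0.20), which turned to −0.24 with the GC correction.

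POLD1, the catalytic subunit of DNA polymerase δ, lay without overlap below NS control (log2 fold change −0.34, limma adjusted p = 0.0624) and was called with the GC correction (−0.33, limma adjusted p = 0.0188) among adjusted p from 0.0188 to 0.225. POLD2, the subunit with the highest level in this role, had 58.0, 46.6 and 45.8 FPKM in NS control and 47.3, 46.9 and 45.0 FPKM in BCL9 KD samples. NS control replicate 1 was the highest library, and the log2 fold change of −0.10 changed to 0.01 without it. POLD3 had 0.06. Of polymerase α with primase, which makes the primers, PRIM2 was above NS control in all BCL9 KD samples (0.31, limma adjusted p = 0.0814, and 0.04 with the GC correction). POLA1, POLA2 and PRIM1 had log2 fold changes of −0.18, −0.03 and 0.09 with overlapping groups. With the GC correction they were −0.32, 0.01 and −0.07, and POLA1 was called lower (limma adjusted p = 0.0170).

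On the deposited values, the sliding clamp and its loader showed no called gene and no gene without overlap of the groups among 6. PCNA, the clamp that holds polymerases on DNA and the most abundant of all 53 transcripts, had 117, 115 and 114 FPKM in NS control and 116, 130 and 125 FPKM in BCL9 KD samples. BCL9 KD replicate 1 lay within the NS control values and the other BCL9 KD samples above them, with a log2 fold change of 0.10 (95% confidence interval −0.06 to 0.26). RFC4, a subunit of the clamp loader, had 13.3, 14.1 and 15.8 FPKM in NS control and 15.8, 20.0 and 21.0 FPKM in BCL9 KD samples. The lowest BCL9 KD sample, replicate 1, met the highest NS control sample, and the log2 fold change was 0.38 (95% confidence interval 0.08 to 0.67, limma adjusted p = 0.110). RFC4 was called in 1 of the 16 alternatives, with limma adjusted p from 0.0487 to 0.334. The other loader subunits RFC1, RFC2, RFC3 and RFC5 had log2 fold changes between −0.16 and 0.16. RFC4 overlaps EIF4A2 on the other strand, where a mean of 5211 reads was counted against 987 on RFC4, and EIF4A2 had 34.3 FPKM in NS control and 52.1 FPKM in BCL9 KD samples. The library kit does not keep the strand, so that reads of the overlap cannot be assigned to either gene from these values. A gene with a mean of at least 10 reads overlaps 19 of the 53 genes, among them CHAF1A (UBXN6), TYMS (ENOSF1), PRIM1 (NACA) and RPA3 (UMAD1).

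RPA3 and CDC7 had the largest absolute log2 fold changes of the 53 genes as deposited, and which was larger depended on the processing. RPA3 (ENSG00000106399, chromosome 7 of GRCh38, 7636518 to 7718607) encodes the smallest subunit of replication protein A, which coats single-stranded DNA at the fork. Its level was 8.64, 7.34 and 8.09 FPKM in NS control and 11.3, 13.4 and 13.9 FPKM in BCL9 KD samples, with means of 8.02 ± 0.651 and 12.9 ± 1.36 FPKM (SD, n = 3). Every BCL9 KD value was above every NS control value (two-sided exact permutation p = 0.1, the smallest this design allows). The log2 fold change was 0.65 (limma adjusted p = 0.0255, standard error 0.103), and it was between 0.59 and 0.73 over the 16 alternatives. RPA3 was called in 10 of them, with adjusted p from 0.0133 to 0.140. Outside the fits with a replicate block, it lost its call with no filter on low values (limma adjusted p = 0.0741) and without NS control replicate 2 (0.118), BCL9 KD replicate 2 (0.139) or BCL9 KD replicate 3 (0.140). UMAD1, which overlaps RPA3 on the other strand, had a mean of 94.3 reads against 672 on RPA3 and a mean level of 1.13 FPKM in NS control and 1.62 FPKM in BCL9 KD samples.

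The other RPA subunits had smaller or opposite differences, and neither was called. RPA1, the large subunit that binds DNA, was below NS control in all BCL9 KD samples (log2 fold change −0.29, limma adjusted p = 0.0851), and RPA2 had overlapping groups (0.09, limma adjusted p = 0.538). Of the enzymes that finish the lagging strand, FEN1, the flap endonuclease, had 48.0, 48.4 and 46.2 FPKM in NS control and 39.8, 42.7 and 44 FPKM in BCL9 KD samples. Its BCL9 KD values were all lower, by a log2 fold change of −0.17 with limma adjusted p = 0.154. LIG1, the ligase that seals Okazaki fragments, was also without overlap (−0.33, limma adjusted p = 0.0759) and was called with the GC correction (−0.28, limma adjusted p = 0.0316).

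The nucleotide synthesis genes, 5 in number, stayed uncalled by limma, and 1 of them had an unadjusted p under 0.05. TK1, thymidine kinase of the salvage pathway and a transcript of cycling cells, had 127, 99.6 and 103 FPKM in NS control and 106, 107 and 110 FPKM in BCL9 KD samples. NS control replicate 1 was again the highest sample, and the log2 fold change of −0.02 (95% confidence interval −0.26 to 0.22) turned to 0.09 without it. TYMS, the thymidylate synthase, was below NS control in all BCL9 KD samples (−0.28, limma adjusted p = 0.103). RRM1 and RRM2, the subunits of ribonucleotide reductase, and DUT, which removes dUTP, had overlapping groups with log2 fold changes of 0.11, −0.01 and 0.17.

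Both E2F factors of the set were lower in every BCL9 KD sample. E2F2 (ENSG00000007968, chromosome 1 of GRCh38, 23506430 to 23531220), an activator of S phase genes, had 3.53, 2.94 and 2.93 FPKM in NS control and 2.19, 1.97 and 2.14 FPKM in BCL9 KD samples. Its means were 3.13 ± 0.346 and 2.10 ± 0.117 FPKM (SD, n = 3). BCL9 KD minus NS control was −0.48 on the log2 scale (limma adjusted p = 0.0473, standard error 0.105). The call was close to the threshold and held in 6 of 16 alternatives, with log2 fold changes from −0.59 to −0.40 and adjusted p from 0.0241 to 0.203. Outside the fits with a replicate block, it was lost with no filter (limma adjusted p = 0.118), median-of-ratios scaling (0.0536) and quantile normalization (0.0528), and without NS control replicate 1 (0.0563), NS control replicate 2 (0.147) or BCL9 KD replicate 1, 2 or 3 (0.0748, 0.203 and 0.192). E2F1, the more abundant activator, had 11.2, 10.2 and 11.1 FPKM in NS control and 8.45, 9.70 and 8.70 FPKM in BCL9 KD samples. It was not called (limma adjusted p = 0.0977), with a log2 fold change of −0.27 and a 95% confidence interval from −0.46 to −0.07.

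All 5 genes of chromatin assembly and DNA methylation behind the fork had log2 fold changes below 0, and none was called by limma. CHAF1A, the large subunit of the histone chaperone CAF-1, had 22.0, 20.9 and 18.2 FPKM in NS control and 14.6, 16.1 and 16.4 FPKM in BCL9 KD samples. The groups did not overlap, and the log2 fold change of −0.36 (95% confidence interval −0.58 to −0.14, limma adjusted p = 0.0636) was called with the GC correction (−0.31, limma adjusted p = 0.0297) and with voom (limma adjusted p = 0.0452). DNMT1, the maintenance DNA methyltransferase, had 38.2, 37.5 and 33.4 FPKM in NS control and 32.1, 30.5 and 31.7 FPKM in BCL9 KD samples, again without overlap (−0.21, limma adjusted p = 0.134). The histone chaperone ASF1B (−0.19) and UHRF1 (−0.14), which guides DNMT1, were lower without overlap as well (limma adjusted p = 0.166 and 0.273). CHAF1B, the partner of CHAF1A, had overlapping groups (−0.04). With the GC correction, DNMT1 (−0.15), ASF1B (−0.15), UHRF1 (−0.09) and CHAF1B (−0.02) were not called by limma. The median GC content was 57.2% for these 5 genes and 48.4% for the 53. Of the 26 replication genes above 48.4%, 23 had a log2 fold change below 0.

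**Figure D2:**
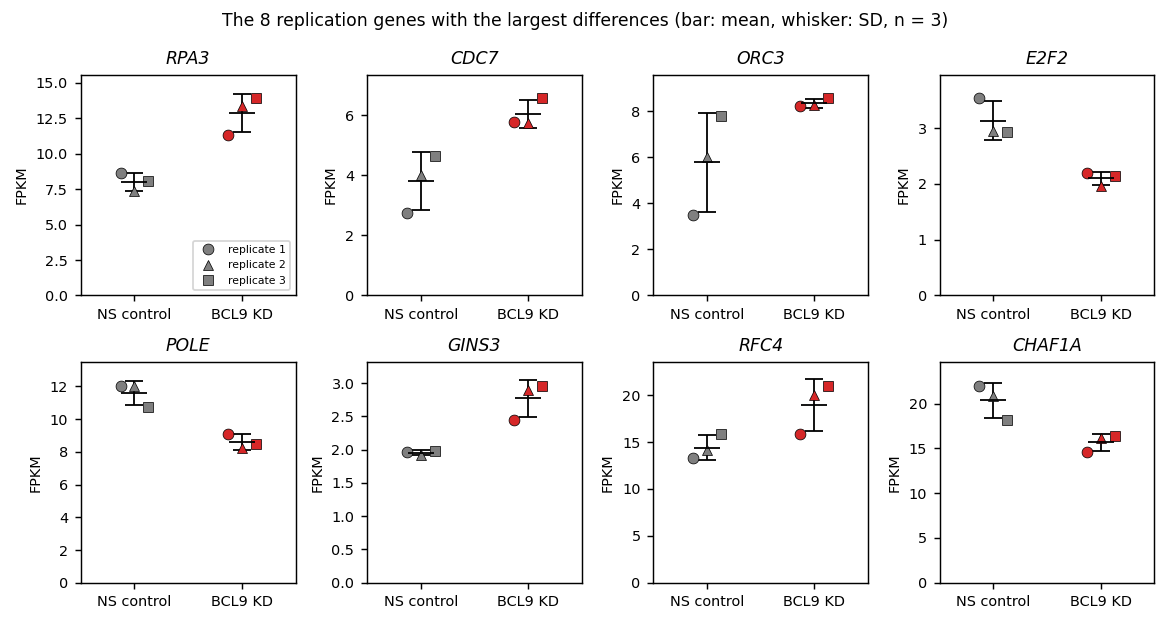
FPKM of the 8 replication genes with the largest absolute log2 fold change is plotted by sample, each point a replicate, with the mean as a bar and the SD as whiskers (n = 3). The groups overlap in RFC4 alone, and NS control replicate 1 is the lowest point for CDC7, ORC3 and RFC4.

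Partners within a complex were also set against each other within each library, which removes anything that scales a whole library. These pairs were chosen after their values were seen. The ratio of RPA3 to RPA1 FPKM was 0.221, 0.197 and 0.247 in NS control and 0.387, 0.435 and 0.485 in BCL9 KD samples. The ratio of GINS3 to GINS4 was 0.356, 0.318 and 0.368 in NS control and 0.510, 0.643 and 0.583 in BCL9 KD samples. Both ratios were higher in every BCL9 KD sample than in any NS control sample. That separation follows from the single genes and adds no support. RPA3 and GINS3 lay above NS control without overlap, and RPA1 and GINS4 lay below it. The ratio of POLE to POLE2 was 2.25, 2.19 and 1.84 in NS control and 1.76, 1.42 and 1.45 in BCL9 KD samples, and that of POLD1 to POLD2 was 0.542, 0.608 and 0.558 in NS control and 0.473, 0.472 and 0.491 in BCL9 KD samples. Here every BCL9 KD ratio was below every NS control ratio. The ratios are not corrected for GC content, which is 55.9% for POLE and 39.5% for POLE2. With the GC correction POLE and POLE2 had log2 fold changes of −0.36 and −0.24, closer to each other than without it (−0.41 and 0.01). The other pairs stayed apart with the correction, at 0.59 and −0.28 for RPA3 and RPA1, 0.43 and −0.18 for GINS3 and GINS4, and −0.33 and −0.06 for POLD1 and POLD2.

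The direction of a replication gene followed the GC content of its transcripts. Across the 53 genes, Spearman's rho between GC content and log2 fold change was −0.68, where all points share the same 6 libraries, and it was −0.31 over the 13577 tested genes with a known GC content. Of the 26 genes above the median GC of 48.4%, 23 had a log2 fold change below 0, with a median of −0.16. Of the 27 genes at or under it, 18 were above 0, with a median of 0.10. NS control replicate 1 moved most with GC. Its deviation from the mean of the 6 libraries had a rho with GC of 0.83 over the 53 genes and 0.57 over all genes, while the other libraries ran from −0.63 to 0.39 over the 53 genes and from −0.35 to 0.10 over all genes. Without that replicate, rho between GC and log2 fold change was −0.48 for the 53 genes and −0.10 for all genes.

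**Figure D3:**
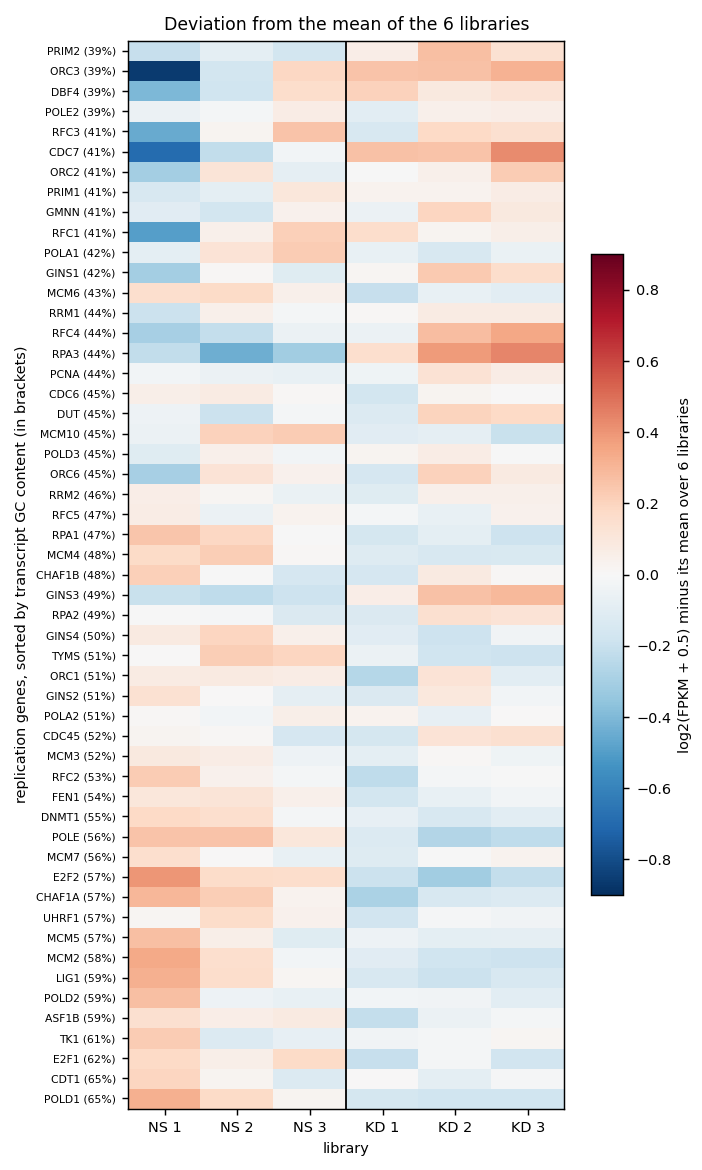
Each row is a replication gene, sorted from low to high transcript GC content (in brackets), and each column a library, with the color giving log2(FPKM + 0.5) minus its mean over the 6 libraries. NS control replicate 1 runs from below its mean at the top, with ORC3 and CDC7 the darkest, to above it at the bottom.

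A correction of each library for GC content by a loess curve brought rho to 0.02 over all genes and to −0.42 over the 53 replication genes. With it, 3 replication genes were called higher (CDC7, RPA3 and GINS3), where 6.11% of all genes tested were, and 8 were called lower (POLE, E2F2, CHAF1A, POLD1, LIG1, POLA1, MCM10 and MCM4), where 7.3% of all genes tested were. The median log2 fold change of the 53 genes remained −0.04, against −0.005 over all genes. It was −0.12 for the 26 genes above the median GC and 0.0039 for the 27 genes at or under it. RPA3 (0.59, limma adjusted p = 0.0271), POLE (−0.36, limma adjusted p = 0.0208) and E2F2 (−0.43, limma adjusted p = 0.0241) were called with and without the correction. A fit with voom to the recovered reads called the same 3 genes higher (5.19% of all genes tested) and POLE, E2F2, CHAF1A and POLD1 lower (5.01% of all genes tested). The correction also moved ORC2 from 0.18 to 0.0039, RFC1 from 0.16 to 0.0039, GINS1 from 0.27 to 0.16 and POLA1 from −0.18 to −0.32. The part of GC content in the uncorrected differences of single genes was not tested beyond this correction.

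**Figure D4:**
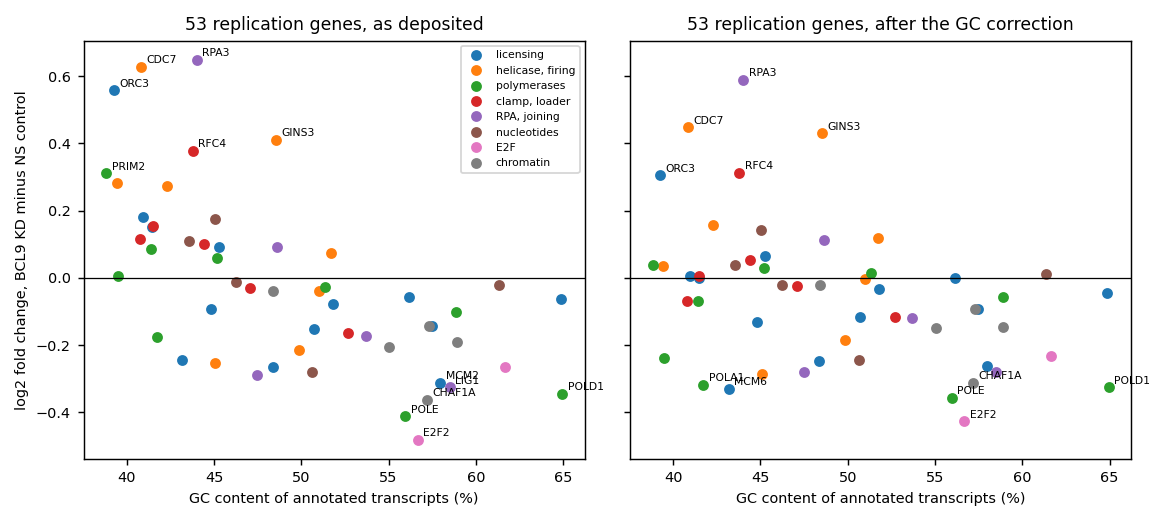
The log2 fold change of FPKM + 0.5, BCL9 KD minus NS control, is plotted against the GC content of annotated transcripts for the 53 genes, as deposited on the left and after the GC correction on the right, with a color for each role. Low-GC genes such as ORC3 and PRIM2 come closer to 0 on the right, while RPA3, CDC7, GINS3, POLE and E2F2 stay at the edges.

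Among lists of related genes, chosen for their known role, CDC25A was the called gene. Of 42 other replication genes (other polymerase and checkpoint subunits, topoisomerases, helicases and histone chaperones), 40 were tested, POLD4 and RNASEH2A fell under the filter, and 0 were called by limma. An unadjusted p under 0.05 was reached by 8 of the 40, 3 higher and 5 lower, against 3775 of all 13745 genes tested. Their median log2 fold change was 0.06, and it turned to −0.02 with the GC correction. With that correction, DSCC1 was called higher and RECQL4, TOP1, RBBP4, HELLS and SAMHD1 lower, and with voom 0 were. The direction of HELLS was turned by the correction (0.04 as deposited, −0.25 corrected), and TOP1 went from −0.08 to −0.23. Among 22 E2F, pocket protein and S phase cyclin genes, 21 were tested and CDC25A, the phosphatase that activates the S phase kinase, was called lower. Of the 21, 13 had a log2 fold change above 0 and 8 below, with a median of 0.03 (−0.0015 with the GC correction). All BCL9 KD values lay above NS control for 2 genes and below for 2, against 17.8% and 16.4% of all genes tested. CDC25A had 22.3, 21.5 and 18.6 FPKM in NS control and 15.9, 15.6 and 15.9 FPKM in BCL9 KD samples (log2 fold change −0.38, limma adjusted p = 0.0475). Outside the fits with a replicate block, CDC25A was called without NS control replicate 3 (0.0256), and without any other single replicate it was not (limma adjusted p from 0.0603 to 0.200), nor with median-of-ratios scaling (0.0576) or no filter (0.103). With the GC correction CCNA2, the cyclin A of S phase, was called lower as well (−0.30, limma adjusted p = 0.0232, against −0.17 and 0.250 as deposited). None of 23 tested mitosis genes was called by limma, 8 had an unadjusted p under 0.05 (5 higher and 3 lower), and their median log2 fold change was 0.12, or 0.07 with the GC correction. Of the 23, 17 were above 0 and 6 below. CENPE, a motor protein of the kinetochore, had 1.46, 2.66 and 6.26 FPKM in NS control and 8.60, 6.33 and 6.74 FPKM in BCL9 KD samples. Its log2 fold change was 1.14 as deposited and 0.74 with the GC correction (limma adjusted p = 0.133 and 0.0684). TTK, CENPF and CDK1 had log2 fold changes of 0.73, 0.70 and 0.68 that were not called. With the GC correction they were 0.45, 0.52 and 0.29, also not called. NS control replicate 1 was the lowest sample for CENPE, TTK, CENPF and CDK1. In the other direction, FOXM1, which drives mitotic genes, was called lower with the GC correction and with voom (log2 fold change −0.41 as deposited, limma adjusted p = 0.0630).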

How the data were processed

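RNA from 3 NS control and 3 BCL9 KD samples of DCIS.COM cells was sequenced as paired-end libraries by a service provider. Per the labels and the methods, the authors aligned reads with STAR to hg38, counted them per gene with HTSeq 0.6.1 and deposited FPKM for 58676 genes. The submitters' processing notes also name CASAVA, and the methods name Tophat for parsing alignments, Cufflink without its step, and 2 biological replicates per condition for DESeq2, while the labels give 3 samples per group. The table also holds the gene length that the authors used, and the remaining columns describe the gene. FPKM multiplied by gene length and divided by a step, the worth of a single read and common to all genes of a library, gave whole reads for 100% of the values within a tolerance of 0.1 read.

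The members and lists were chosen with earlier results of these data known. Samples were grouped by their labels, and none was left out. Genes averaging at least 0.5 FPKM were tested on log2(FPKM + 0.5) with limma 3.58.1 (R 4.3.3, empirical Bayes with a trend), Benjamini-Hochberg adjusted over all 13745 genes. The deposited unit is FPKM, so limma on its logarithm was the main test, and the recovered reads were tested with voom. DESeq2 was not run. Alternatives were an added value of 1 or 0.1, a mean FPKM of at least 1, no filter, quantile normalization, median-of-ratios scaling, voom on the recovered reads, the replicate number as a block, a GC correction, both together, and each sample left out. The GC correction fitted a loess curve (span 0.3) to the deviation of each sample on GC content, known for 98.8% of tested genes from GRCh37 transcripts matched by gene ID. Values of all samples are given for called genes, the 8 largest differences and the highest level in each role. At most 6 tested genes of each other list are named, with genes under the filter named in addition. Genes that overlap the 53, genes under the filter, the uncalled genes of other lists, the members named outside this rule and the ratios were chosen after values were seen. Scripts were tested on simulated data. Other tools were matplotlib 3.10.9, scipy 1.17.1, pandas 2.3.3 and numpy 2.4.6 in Python 3.11. Reads carry no molecular identifiers, so that read numbers cover counting error only in part.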

Additional observations from a re-analysis of the deposited data

How the results depend on the processing

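Of the 53 replication genes, 38 kept the sign of their log2 fold change under all 16 alternatives, and the 15 that changed it had absolute values of at most 0.155. The number called was 3 (1 higher and 2 lower) with limma as reported and with 1 or 0.1 FPKM added or a mean FPKM of at least 1. It was 0 with no filter (22 at an unadjusted p under 0.05, and 142 of all genes called, 70 higher and 72 lower). It was 2 with median-of-ratios scaling (1 higher and 1 lower, of 646 genes, 302 higher and 344 lower), 6 with quantile normalization (2 higher and 4 lower, of 1083 genes, 470 higher and 613 lower), 7 with voom (3 higher and 4 lower, of 1403 genes, 714 higher and 689 lower) and 11 with the GC correction (3 higher and 8 lower, of 1843 genes, 840 higher and 1003 lower). With the replicate block, limma called 0 replication genes and 0 of all genes, with 18 and 3235 at an unadjusted p under 0.05, and the limma adjusted p was 0.0903 for RPA3, 0.105 for POLE and 0.113 for E2F2. With block and GC correction combined it called 0 (17 at an unadjusted p under 0.05) and 352 of all genes, 158 higher and 194 lower, with limma adjusted p of 0.0846 for RPA3, 0.0657 for POLE and 0.0612 for E2F2. CDC25A (limma adjusted p = 0.117 and 0.0649) and, with the block alone, BCL9 (0.0656) lost their calls too. Samples of the same number had correlations of their deviations, without the GC correction, of −0.147, −0.0884 and −0.0029, none of them positive. Whether samples of the same number shared a batch was not tested, and neither was the cause of the changes between settings.

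When single replicates were left out, the number of replication genes called ran from 0 (without NS control replicate 2, BCL9 KD replicate 2 or BCL9 KD replicate 3, with 15, 13 and 13 at an unadjusted p under 0.05) to 11 (without NS control replicate 3), from 0 to 3 higher and from 0 to 8 lower. Over all genes it ran from 5 to 1712, from 2 to 908 higher and from 3 to 804 lower. RPA3 was called without NS control replicate 1, NS control replicate 3 or BCL9 KD replicate 1, POLE without NS control replicate 3 or BCL9 KD replicate 1, and E2F2 without NS control replicate 3.

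The sign changed with the GC correction, with or without the block, for GMNN (−0.00197), POLA2 (0.0131), POLE2 (−0.238), PRIM1 (−0.0698), RFC3 (−0.0685) and TK1 (0.0121). It changed with median-of-ratios scaling for POLE2 (−0.0241) and with quantile normalization for POLE2 (−0.0502) and PCNA (−0.0046). With a replicate left out, log2 fold changes ran from −0.0364 to 0.19 for ORC6, from −0.142 to 0.0178 for CDT1, from −0.104 to 0.00456 for MCM7, from −0.0979 to 0.0171 for GINS2, from −0.0496 to 0.00396 for POLA2, from −0.163 to 0.00668 for POLD2, from −0.0235 to 0.0563 for POLE2, from −0.0528 to 0.302 for RFC1, from −0.0834 to 0.272 for RFC3, from −0.0465 to 0.0388 for RRM2, from −0.0894 to 0.087 for TK1 and from −0.127 to 0.058 for CHAF1B.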
